A study of Homo sapiens with 64 samples.

Results

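The 10 genes described here build or carry amino acids: ASNS, PHGDH, PSAT1, PSPH, SHMT2, MTHFD2, ALDH1L2, SLC7A11, SLC3A2 and SLC7A5. They were taken by symbol from a fixed list, not by their values, out of 39004 gene names in the count tables and SLAM-seq files. All 10 had a row in each of the 4 tables, and 9 could be tested in SLAM-seq, where ALDH1L2 had 17 reads over 16 libraries. The other tables tested all 10.

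The study lowered 2 proteins of the box C/D snoRNP, the nucleolar particle that adds 2′-O-methyl groups to ribosomal RNA, with small interfering RNAs (siRNAs). FBL (fibrillarin) is its methyltransferase and NOP56 a scaffold subunit. HEK293T, a line from human embryonic kidney that carries the SV40 large T antigen, received siCTRL, siFBL or siNOP56 and was sampled at 0, 6, 12 and 24 h (24 libraries). C4-2, a castration-resistant prostate cancer line derived from LNCaP, received siCTRL or siFBL and was sampled at 0, 3, 6 and 12 h (16 libraries). RNA immunoprecipitation (RIP) with an antibody to FBL and the matching input came from C4-2 cells with siCTRL (2 libraries each). SLAM-seq, which marks RNA made in the presence of 4-thiouridine by T>C conversions in the reads, covered C4-2 cells with siCTRL or siFBL (16 libraries), labelled with 100 µM 4-thiouridine for 24 h and chased with 10 mM uridine. Each group of siRNA and hour held 2 libraries, and 4 nanopore libraries were not analysed here. The stated purpose of the hours is mRNA half-life, and any agent used to block transcription in the RNA-seq courses remains not given in the sources used here. The series design names shNOP56 where the sample labels name siNOP56. All groups of a cell line share that line, and nothing in the labels says that the 2 libraries of a group came from separate cultures. Each p-value therefore measures the spread between libraries, which may be technical.

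Cells make serine from a glycolytic intermediate in 3 steps, run by PHGDH, PSAT1 and PSPH. Mitochondrial SHMT2 splits serine into glycine and a folate-bound carbon unit, which MTHFD2 and ALDH1L2 oxidise further. ASNS makes asparagine from aspartate and glutamine. SLC7A11 takes up cystine in exchange for glutamate, SLC7A5 takes up large neutral amino acids such as leucine, and SLC3A2 is the heavy chain that both need at the cell surface. Many of these genes are known targets of ATF4, the transcription factor whose translation rises when amino acids run short or the endoplasmic reticulum is stressed.

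The genes lie on separate chromosomes or far apart in GRCh38 with the GENCODE v29 annotation. PHGDH spans chr1:119648411-119744226 on the plus strand, PSAT1 chr9:78297143-78330093 on the plus strand and PSPH chr7:56011051-56051604 on the minus strand. SHMT2 spans chr12:57229327-57234935 (plus), MTHFD2 chr2:74198562-74217565 (plus) and ALDH1L2 chr12:105019784-105084577 (minus). ASNS spans chr7:97852118-97872542 (minus), SLC7A11 chr4:138164097-138242349 (minus), SLC3A2 chr11:62856102-62888875 (plus) and SLC7A5 chr16:87830023-87869488 (minus). Whether counting used strand remains not given in the sources used here, so reads of the antisense genes SLC7A11-AS1 and SLC7A5-AS1, of SLC4A5 beside MTHFD2, and of processed copies such as PSPHP1 cannot be told apart from those of the genes themselves.

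The promoters were searched for 3 motifs on both strands, from 250 bases before to 50 after each start in the RefSeq table of GRCh38.p14. The motifs were TGATGNAA, the composite element that ATF4 and C/EBP factors are known to bind, TGACNNNGC, the core of the antioxidant response element that NRF2 is known to bind, and CACGTG, the E-box. The table matched 6 of the 10 genes (ASNS, PHGDH, PSAT1, MTHFD2, SLC3A2 and SLC7A5) with 9 promoters in all. Each window below is shown because it holds one of these motifs in a gene that the knockdowns or the RIP compare. Capitals mark the motif, on whichever strand, and each window runs 5′ to 3′ along its gene.
ASNS, TGATGNAA, chr7:97872459-97872486, minus strand: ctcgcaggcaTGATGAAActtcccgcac
SLC3A2, TGATGNAA read on the other strand, chr11:62881726-62881748, plus strand: gcaggactccTTACATCAgctcc
SLC3A2, TGACNNNGC, chr11:62881652-62881680, plus strand: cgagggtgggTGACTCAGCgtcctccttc
MTHFD2, TGACNNNGC read on the other strand, chr2:74198611-74198639, plus strand: ttccctcccgGCGCAGTCAccggcgcggt
SLC7A5, TGACNNNGC, chr16:87869491-87869519, minus strand: gcggggttccTGACGCAGCtgcgggcggc
SLC7A5, CACGTG, chr16:87869622-87869647, minus strand: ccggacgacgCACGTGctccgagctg
The ASNS motif lay 68 bases before the start and that of SLC3A2 38 bases after its start. TGATGNAA occurred in 3.62% of all 35116 promoters of this length, TGACNNNGC in 13.3% and CACGTG in 7.26%. No pair of these motifs overlapped. These matches describe letters in a window and say nothing of binding in these cells.

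Total counts per library, in Mreads (megareads), were 15.96 to 19.88 Mreads in HEK293T, 79.03 to 106.1 Mreads in C4-2 and 22.91 to 33.27 Mreads in RIP, and 14.31 to 60.31 Mreads were mapped in SLAM-seq. The knockdowns were seen in the targeted genes. FBL was 322 and 313 CPM (counts scaled to a common library size after normalisation) with siCTRL at 0 h in HEK293T, against 17.7 and 15.5 CPM with siFBL. In C4-2 it was 305 and 265 CPM against 3.63 and 2.76 CPM. NOP56 was 206 and 204 CPM with siCTRL at 0 h, 91.9 and 76.3 CPM with siNOP56, and 359.5 and 354 CPM with siFBL. The 8 markers of prostate cells fixed for C4-2 summed to 5558 to 8079 CPM in every C4-2 library and to 4.61 to 44.4 CPM in HEK293T, where KLK3 was 0 in all libraries. The 6 markers fixed for HEK293T summed to 724 to 989 CPM with siCTRL, 1011 to 1182 CPM with siFBL and 959.6 to 1158 CPM with siNOP56. In C4-2 they summed to 51.4 to 73.4 CPM with siCTRL and 23.7 to 45.9 CPM with siFBL. Most of the HEK293T sum was VIM, at 514 to 920 CPM there and 7.16 to 21.3 CPM in C4-2. NES, also on that list, went the other way, at 1.98 to 11.6 CPM in HEK293T and 13.3 to 53.9 CPM in C4-2. The 5 leukocyte markers summed to at most 6.12 CPM in any RNA-seq library. The 5 fibroblast markers summed to 16.8 to 58.7 CPM in HEK293T and 27.7 to 43.6 CPM in C4-2, of which COL1A1 was 16.2 to 57.2 CPM and 21.0 to 37.7 CPM, and PDGFRB 3.26 to 7.77 CPM in C4-2. Their part in the results was not tested.

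Before any knockdown effect, the cell lines carried these mRNAs in a like order. On the scale of CPM per kilobase of annotated exon at 0 h with siCTRL, HEK293T had most PSAT1 (67.9 ± 0.47, SD, n = 2), then SLC7A5 (63.6 ± 0.37), SHMT2 (43.4 ± 0.07), PHGDH (35.0 ± 0.055), MTHFD2 (23.9 ± 0.15), ASNS (22.6 ± 0.43), SLC3A2 (18.1 ± 0.68), PSPH (10.4 ± 0.20), ALDH1L2 (8.29 ± 0.36) and SLC7A11 (2.49 ± 0.017). Each step in that order was larger than the SD of either neighbour. The length used joins the exons of all annotated transcripts, 9217 bases for PHGDH and 2188 for PSAT1, and the order within a line depends on it. By CPM alone PHGDH was highest of the 10 in HEK293T (323 CPM), against 149 CPM for PSAT1. C4-2 had most SHMT2 (98.8 ± 1.05), then PSAT1 (87.9 ± 10.4), SLC7A5 (65.7 ± 0.67), PHGDH (36.5 ± 1.68), SLC3A2 (30.8 ± 1.64), MTHFD2 (28.6 ± 2.88), ASNS (26.4 ± 1.72), PSPH (19.6 ± 0.69), SLC7A11 (5.61 ± 0.78) and ALDH1L2 (0.195 ± 0.0039). There SLC3A2 and MTHFD2, and MTHFD2 and ASNS, differed by less than the SD of MTHFD2. ALDH1L2, the mitochondrial formyltetrahydrofolate dehydrogenase, was the gene that set the lines apart most in level, near the lower end in HEK293T and close to absent in C4-2.

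In HEK293T with siFBL, 4 of the 10 genes fell at 0 h, ASNS, SHMT2, ALDH1L2 and SLC7A11, and none rose, by edgeR (quasi-likelihood fit, p-values adjusted after Benjamini and Hochberg over 14939 genes, threshold 0.05). Over all genes tested, 0.81% were called lower and 0.93% higher, 1.74% in all. The median log2 change of the 10 was −0.71, against 0.04 for all genes. In bulk samples, fewer cells of a type and less RNA per cell cannot be told apart.

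ASNS was 99.6 and 102 CPM with siCTRL at 0 h and 43.96 and 34.4 CPM with siFBL. The groups stood well apart, a 2.58-fold fall (log2 −1.36, SE 0.18, adjusted p = 0.00177, edgeR). SLC7A11, the cystine carrier, was 23.9 and 24.1 CPM with siCTRL and 9.74 and 4.19 CPM with siFBL. Both siFBL libraries were low, but they differed from each other more than for any other called gene. Its fall was 3.44-fold (log2 −1.78, SE 0.34, adjusted p = 0.0161). ALDH1L2 was 72.7 and 68.4 CPM against 41.5 and 35.2 CPM, a 1.84-fold fall (SE 0.19 on the log2 scale, adjusted p = 0.0311). SHMT2 was 210.4 and 209.9 CPM against 142 and 146 CPM, a 1.46-fold fall that only just passed (SE 0.13 on the log2 scale, adjusted p = 0.0479).

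The 3 steps of serine synthesis did not pass at 0 h. PHGDH, the entry enzyme, was 322 and 323 CPM with siCTRL and 178 and 165 CPM with siFBL. The groups did not overlap, and the log2 difference was −0.91 (SE 0.26, adjusted p = 0.078). PSAT1, the aminotransferase, was 149 and 148 CPM against 89.5 and 39.2 CPM. Its siFBL libraries lay far apart, and the log2 difference was −1.21 with an SE of 0.56 (adjusted p = 0.271). PSPH, the phosphatase of the last step, was 28.3 and 29.1 CPM against 24.9 and 22.3 CPM, a log2 difference of −0.28 (adjusted p = 0.426). MTHFD2 was 116 and 117 CPM against 77.9 and 111 CPM (log2 −0.30, adjusted p = 0.63).

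The transporters went separate ways. SLC3A2, the shared heavy chain, was 95.97 and 91.01 CPM with siCTRL and 149 and 187 CPM with siFBL. Both siFBL libraries lay above both controls, with a log2 difference of 0.85 (SE 0.21) that narrowly missed the threshold (adjusted p = 0.053). SLC7A5, the leucine carrier, was 303 and 301 CPM against 253 and 322 CPM. Its siFBL libraries fell on either side of the controls (log2 −0.07, adjusted p = 0.832).

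At the later hours PHGDH joined the genes that fell, so that 5 of 10 fell and none rose at 6, 12 and 24 h. Of all genes, 3.29%, 4.57% and 6.11% were called lower at these hours, 3.33%, 6.34% and 8.96% higher, and 6.63%, 10.9% and 15.1% in all. PHGDH was higher at each later hour in every group, and at 24 h it was 1024 and 938 CPM with siCTRL and 498 and 442 CPM with siFBL. The knockdown libraries lay below it by about the same factor, with log2 differences of −0.95 at 6 h, −1.03 at 12 h and −1.06 at 24 h (adjusted p = 0.0379, 0.0178 and 0.0117). ASNS was lower by log2 −1.47, −1.59 and −1.51 at these hours (adjusted p = 0.000502, 0.000173 and 0.000133). SLC7A11 was 12.4 and 13.5 CPM with siCTRL at 24 h and 4.86 and 2.53 CPM with siFBL, the lowest level of any of the 10 in this line (log2 −1.81, adjusted p = 0.00408). SHMT2 was 434 and 435 CPM against 254 and 293 CPM at 24 h (log2 −0.67, adjusted p = 0.00408), and ALDH1L2 102 and 112 CPM against 63.9 and 54.6 CPM (log2 −0.85, adjusted p = 0.00733). The excess of SLC3A2 seen at 0 h was gone, with log2 differences of 0.17, −0.02 and −0.05 at 6, 12 and 24 h. MTHFD2 with siFBL spread widely at 24 h, at 138 and 249 CPM, around controls at 138 and 134 CPM.

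ASNS kept its call at each of the 4 hours without any single library. At 0 h it was the only call left without siCTRL replicate 1, siCTRL replicate 2 or siFBL replicate 2, and SLC7A11 stayed called beside it without siFBL replicate 1. The later counts were lowest without siCTRL replicate 2 at 6 h (1 gene) and without siFBL replicate 2 at 12 h (1 gene) and 24 h (2 genes), and highest without siFBL replicate 1 (4 genes at 6 h, 6 at 12 h and 6 at 24 h). With only the 4 libraries of siFBL and siCTRL at 1 hour, none of the 10 passed at any hour, where at most 5 of all genes did. Libraries of 1 siRNA and replicate number deviated alike at every hour in siFBL (r 0.811 to 0.909) and siNOP56 (r 0.653 to 0.878), so the hours are not independent and the p-values may be too small.

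**Figure D1:**
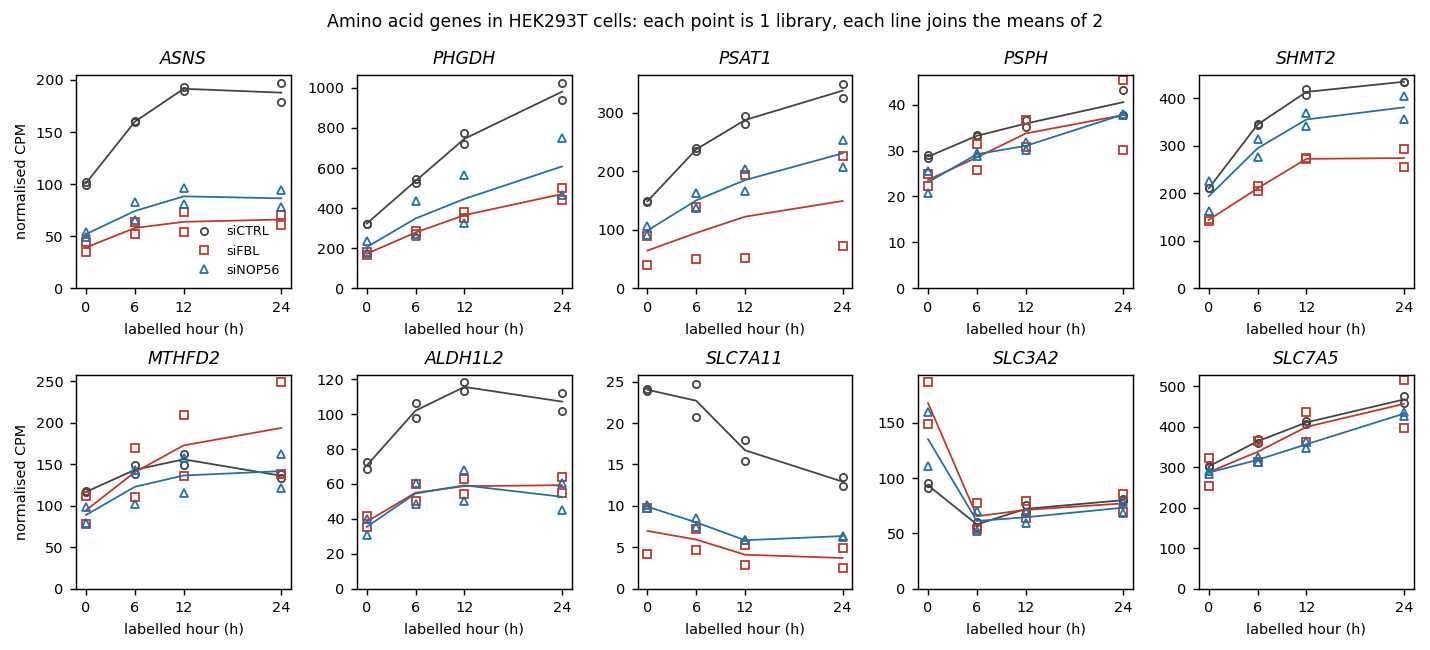
Normalised CPM (vertical axes, each starting at 0) of the 10 genes in HEK293T against the labelled hour. Each point is 1 library, each line joins the means of 2 libraries, and colours and symbols mark siCTRL, siFBL and siNOP56. The ASNS libraries with siFBL run from 34.4 to 73.2 CPM, below all siCTRL libraries (99.6 to 197 CPM). SLC3A2 with siFBL lies above the controls at 0 h but not at later hours. With siNOP56 at 0 h it averages 135 CPM (SD 34.9), against 93.5 CPM (SD 3.51) with siCTRL.

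Other genes of amino acid metabolism were called in both directions. Of 15 other amino acid synthesis genes, 2 fell at 0 h with siFBL and 4 at each later hour, and none rose. At 24 h these were ASS1, which joins citrulline and aspartate (log2 −0.97), PYCR3 (−0.84) and PYCR1 (−0.58), which make proline, and CTH, which makes cysteine from cystathionine (−0.79). Among 19 other amino acid transporters tested, SLC7A3, a carrier of cationic amino acids, fell at every hour (log2 −1.68 at 0 h and −1.61 at 24 h), and 3 rose and 3 fell at 24 h. Of 15 ATF4-linked regulators, counting ATF4 itself, 1 fell at 0 h (DDIT4, log2 −1.52, adjusted p = 0.012) and none rose, 4 fell and 1 rose at 6 h (SESN2, log2 1.21, adjusted p = 0.0094), 5 fell and 2 rose at 12 h, among them TRIB3 (log2 1.60, adjusted p = 0.043), and 6 fell and none rose at 24 h. ATF4 mRNA was 1688 and 1588 CPM with siCTRL at 24 h and 994 and 679 CPM with siFBL (log2 −0.97, adjusted p = 0.00327), while at 0 h its log2 difference was −0.28 (adjusted p = 0.465).

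None of the 12 tRNA synthetases known as ATF4 targets fell at any hour, and TARS rose at 24 h (log2 1.12, adjusted p = 0.016). Their median log2 change was −0.15 at 0 h and 0.12 at 24 h. Of 11 other folate enzymes tested, none fell, MTHFD1L rose at 12 h (log2 0.49) and 24 h (log2 0.84), and MTHFD1 rose at 24 h (log2 0.33). Of 10 genes of the NRF2 and glutathione list, none fell, SRXN1 rose at 6, 12 and 24 h (log2 1.13, 1.03 and 1.25) and GCLM at 24 h (log2 0.76). Of 8 other tRNA synthetases, QARS fell at 0, 6 and 12 h (log2 −0.57, −0.60 and −0.57), and FARSB (log2 0.68) and DARS (log2 0.60) rose at 24 h.

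With siNOP56 in HEK293T, ASNS and ALDH1L2 fell at 0 h and none rose, 2 of 10, where 0.0669% of all genes were called lower, 0.12% higher and 0.187% in all. ASNS was 54.3 and 49.6 CPM with siNOP56 (log2 −0.96, SE 0.18, adjusted p = 0.046), against the siCTRL values given above. ALDH1L2 was 40.1 and 30.6 CPM, a 1.99-fold fall (SE 0.19 on the log2 scale, adjusted p = 0.0483). Both sets of libraries lay below both controls. SLC7A11, at 10.1 and 9.68 CPM, lay as clearly below, with a log2 difference of −1.28 (SE 0.33, adjusted p = 0.132). SLC3A2 averaged 135 CPM (SD 34.9, n = 2) with siNOP56 at 0 h, above its siCTRL mean of 93.5 CPM (SD 3.51), and was not called.

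The same 2 genes fell with siNOP56 at 6 h and 24 h, and SLC7A11 fell with them at 12 h, while none rose. Of all genes, 0.315%, 0.663% and 1.73% were called lower at 6, 12 and 24 h, 0.368%, 0.864% and 3.58% higher, and 0.683%, 1.53% and 5.31% in all. SLC7A11 at 12 h was 15.4 and 17.98 CPM with siCTRL and 5.85 and 5.83 CPM with siNOP56 (log2 −1.52, adjusted p = 0.0374). PHGDH with siNOP56 was spread, at 234 and 176 CPM at 0 h and 749 and 466 CPM at 24 h, and did not pass at any hour (adjusted p = 0.124 to 0.323). SHMT2 was 162 and 225 CPM at 0 h, on either side of its controls (log2 −0.12, adjusted p = 0.777). These calls rest on few libraries. Without siCTRL replicate 1, or without siNOP56 replicate 2, no gene of the 10 passed at any hour, and without siCTRL replicate 2 only 1 passed, at 24 h. Without siNOP56 replicate 1 there were 1, 2, 3 and 3 calls at 0, 6, 12 and 24 h.

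The other lists had few calls with siNOP56. Of the 15 ATF4-linked regulators 1 fell at 0 h, DDIT4 (log2 −1.43, adjusted p = 0.046), and 3 at 24 h, VLDLR (−2.25), DDIT4 (−1.05) and STC2 (−0.83). ATF4 was not among them, at log2 −0.13, −0.46, −0.43 and −0.51 over the 4 hours (adjusted p = 0.118 to 0.834). At 24 h SLC1A4 (log2 −1.34) and SLC38A2 (−0.89), carriers of small neutral amino acids, fell and SLC7A6 rose (0.54), 3 of 19 other transporters. TARS (log2 1.10) and MARS (0.56) of the ATF4-linked tRNA synthetases and MTHFD1L (0.51) and MTHFD1 (0.43) of the folate enzymes rose at 24 h, and none of the other amino acid synthesis genes was called at any hour.

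The values of siFBL and siNOP56 share their siCTRL libraries, so they are set side by side only. The direct comparison of siFBL with siNOP56 at 0 h, which needs no control, called none of the 10 genes, and 3 of all 14939 genes (0.0201%, of which 0.00669% higher and 0.0134% lower with siFBL) with 762 at an unadjusted p under 0.05. DESeq2 also called none of the 10 there and 19 of all genes. The differences were not narrow, however. That of ASNS was log2 −0.41 with an interval of 2 SE either side from −0.76 to −0.06, that of SHMT2 −0.43 (−0.69 to −0.16) and that of SLC7A11 −0.51 (−1.18 to 0.17), all lower with siFBL. That of ALDH1L2 was 0.12 (−0.26 to 0.50).

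In C4-2 with siFBL, 5 of 10 genes fell at 0 h, PHGDH, PSPH, MTHFD2, SLC7A11 and SLC7A5, and none rose, where 6.87% of 23437 genes were called lower, 1.61% higher and 8.48% in all. The median log2 change of the 10 was −0.54, against 0.04 for all genes. PHGDH was 348 and 326 CPM with siCTRL and 188 and 223 CPM with siFBL. The groups were far apart, a 1.64-fold fall (log2 −0.71, SE 0.12, adjusted p = 0.00134, edgeR).

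PSPH was 55.6 and 52.9 CPM with siCTRL and 35.00 and 36.5 CPM with siFBL, a 1.52-fold fall (adjusted p = 0.043). MTHFD2, the mitochondrial methylenetetrahydrofolate dehydrogenase, was 149 and 129 CPM against 68.4 and 93.4 CPM, a 1.72-fold fall (SE 0.17 on the log2 scale, adjusted p = 0.00772). No siFBL library reached a control in either gene. SLC7A11 was 59.4 and 48.7 CPM against 33.05 and 28.5 CPM (log2 −0.81, SE 0.22, adjusted p = 0.0274). SLC7A5 was 314 and 309 CPM against 205 and 241 CPM (log2 −0.48, SE 0.13, adjusted p = 0.0271).

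The other 5 genes did not pass at 0 h, though 4 of them lay below the controls. PSAT1 was 209 and 176 CPM against 137 and 107 CPM (log2 −0.66, adjusted p = 0.059), and SHMT2 was 482 and 474 CPM against 301 and 382 CPM (log2 −0.48, adjusted p = 0.053). With size factors by the relative log expression method (RLE) in place of the trimmed mean of M-values, both passed (adjusted p = 0.0261 and 0.0238). ASNS was 123 and 112 CPM against 96.9 and 81.2 CPM (log2 −0.40, SE 0.17, adjusted p = 0.167), a difference that did not pass. SLC3A2 was 165 and 153 CPM against 119.8 and 136 CPM (log2 −0.31, adjusted p = 0.246). ALDH1L2 was at 1.63 to 2.06 CPM in all 4 libraries (log2 0.19, SE 0.42), too low and too spread to place.

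PHGDH, MTHFD2 and SLC7A5 fell again at 3, 6 and 12 h, and PSPH at 12 h. That made 3, 3 and 4 of 10, and none rose. Of all genes, 8.94%, 6.92% and 10.7% were called lower at these hours, 2.98%, 2.13% and 2.73% higher, and 11.9%, 9.05% and 13.4% in all. At 12 h PHGDH was 592 and 607 CPM with siCTRL and 339 and 313 CPM with siFBL (log2 −0.88, SE 0.12, adjusted p = 0.000153). MTHFD2 was 190.1 and 185 CPM against 96.96 and 99.6 CPM, a 1.91-fold difference (adjusted p = 0.00149). SLC7A5 held its level over the hours in both groups, between 305 and 322 CPM with siCTRL and between 205 and 246 CPM with siFBL. PSPH at 12 h was 72.4 and 62.8 CPM against 47.6 and 31.5 CPM (log2 −0.77, adjusted p = 0.00742). The siFBL libraries of SLC7A11 at 12 h, 43.9 and 24.3 CPM, had come to overlap the controls at 45.6 and 41.8 CPM (log2 −0.36, adjusted p = 0.303).

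PHGDH kept its call at every hour without any single library, and MTHFD2 at 3, 6 and 12 h. At 0 h PHGDH alone was called without siCTRL library A or siFBL library A, and it was called with MTHFD2 and SLC7A11 without siCTRL library B. Without siFBL library B, PHGDH, MTHFD2 and SLC7A5 kept their calls, PSPH and SLC7A11 lost theirs (adjusted p = 0.116 and 0.146) and SHMT2 gained one. At 12 h 8 genes passed without siFBL library A and 2 without siFBL library B or siCTRL library A. At 3 h SLC7A5 lost its call whichever of the 4 libraries was left out (adjusted p = 0.0593 to 0.164), and at 6 h without siCTRL library A, siCTRL library B or siFBL library A (4 genes passed without siFBL library B). RLE scaling also ended the call of SLC7A5 at 6 h (adjusted p = 0.0838), where it moved the split of all calls from 500 higher and 1622 lower to 749 higher and 1259 lower. With the 4 libraries of 6 h alone none of the 10 passed, and with those of 12 h alone 2 did. The siFBL libraries of 1 letter deviated alike from their group means at every pair of hours (r 0.65 to 0.803), so here too the hours are not independent and the p-values may be too small.

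**Figure D2:**
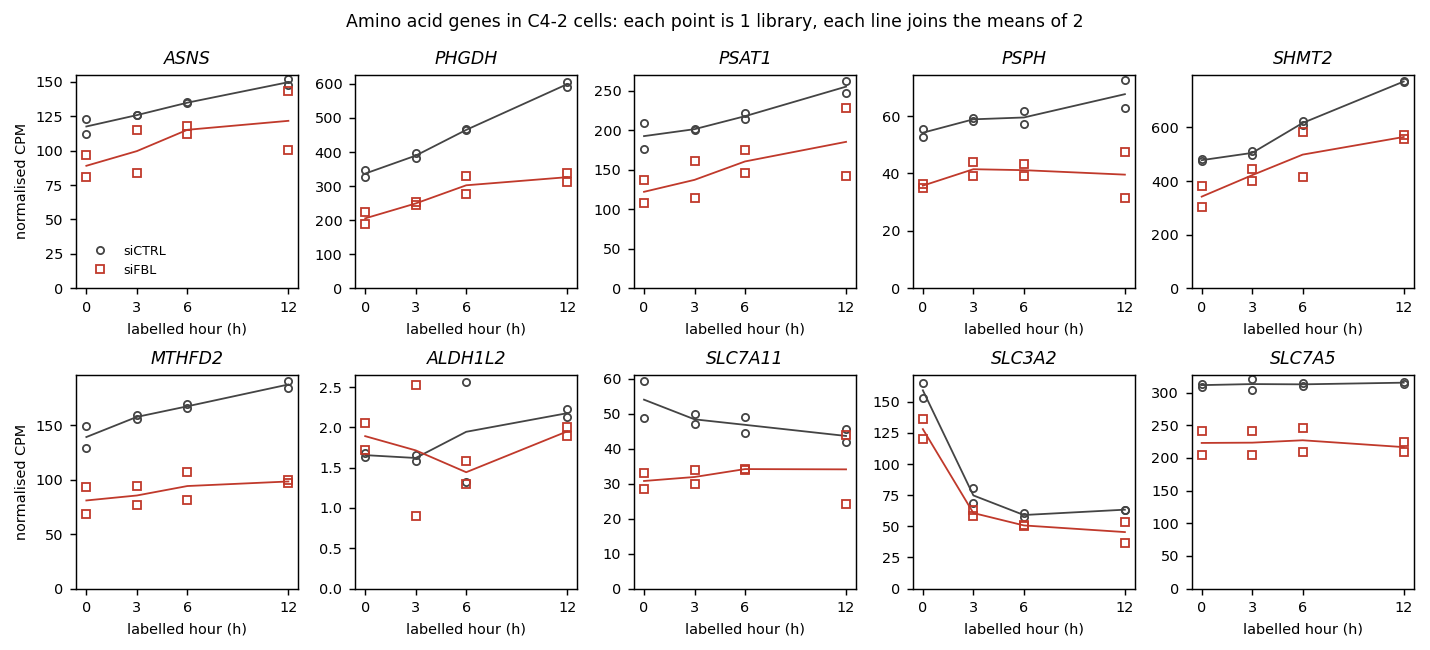
Normalised CPM (vertical axes, each starting at 0) of the 10 genes in C4-2 against the labelled hour. Each point is 1 library and each line joins the means of the 2 libraries with siCTRL or siFBL. PHGDH with siFBL (188 to 339 CPM) runs below siCTRL at every hour, and SLC3A2 with siCTRL is at 165 and 153 CPM at 0 h and at 68.7 and 80.9 CPM at 3 h.

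Other folate enzymes were lower too in C4-2. Of 12 other folate enzymes, 5 fell at 0 h and none rose, among them TYMS, thymidylate synthase (log2 −1.35), MTHFD1 (−0.97) and MTHFD1L (−0.81), with a median log2 change of −0.43. The count was 5 at each later hour too, with ALDH1L1, at log2 2.46 and 1.96, rising at 3 and 12 h. TYMS is known for its part in DNA synthesis, and cell cycle genes were not analysed here. Of 12 tRNA synthetases known as ATF4 targets, 3 fell at 0 h (IARS, YARS and MARS, log2 −0.72 to −0.55) and 5 at 12 h, and none rose. Of 21 other transporters, 3 fell at 0 h, SLC1A4 (log2 −1.30), SLC7A2 (−1.02) and SLC1A5, the glutamine carrier (−1.01), and SLC43A2 rose (0.55). Of 15 other amino acid synthesis genes, BCAT1 (log2 −0.93) and GOT1 (−0.51) fell at 0 h and none passed later. Of the NRF2 and glutathione list, GSR (−0.52) and GPX4 (−0.47) fell at 0 h, 2 of 10, and of 8 other tRNA synthetases FARSB (−0.83) and VARS (−0.48) fell.

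ATF4 mRNA fell in C4-2 at every hour. It was 508 and 446 CPM with siCTRL at 0 h and 293 and 315 CPM with siFBL (log2 −0.65, adjusted p = 0.00458), and 377 and 358 CPM against 134 and 108 CPM at 12 h (log2 −1.60, adjusted p = 1.39e-06). Of the 15 ATF4-linked regulators, counting ATF4, 2 rose and 2 fell at 0 h, and none rose and 7 fell at 12 h. SESN2, the leucine sensor, rose at 0 h (log2 1.71, adjusted p = 0.026) and DDIT4, an inhibitor of mTORC1 signalling, rose as well (log2 1.22, adjusted p = 0.0053), while DDIT4 fell in HEK293T. The difference of its effects between the lines was log2 2.94 (SE 0.39, adjusted p = 1.89e-05). The mRNA level of ATF4 is not its protein level, which was not measured in these files.

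The knockdown of FBL acted differently on ASNS and SLC3A2 in the 2 lines. In 1 model of both time courses, the siFBL effect at 0 h in C4-2 minus that in HEK293T was log2 1.18 for ASNS (SE 0.25, adjusted p = 0.00303), whose fall was larger in HEK293T. For SLC3A2 it was log2 −0.94 (SE 0.26, adjusted p = 0.0223), with lower values in C4-2 and higher ones in HEK293T. The joint model scales all libraries together, so these differences are not exactly those between the separate fits (log2 −0.40 in C4-2 and −1.36 in HEK293T for ASNS, −0.31 and 0.85 for SLC3A2). These were 2 of 10 genes, where 7.49% of 17634 genes were called, 3.26% higher and 4.24% lower. ALDH1L2 (log2 1.29, adjusted p = 0.061) and SLC7A11 (1.19, adjusted p = 0.077) did not pass. For PHGDH the difference was log2 0.41 with an interval from −0.20 to 1.01, and for MTHFD2 −0.26 (−0.98 to 0.45). Cell line and sequencing depth differ together between the courses and cannot be told apart. The call of ASNS was lost without C4-2 siCTRL library B (log2 0.90, adjusted p = 0.0512), HEK293T siCTRL replicate 2 (0.96, adjusted p = 0.0538) or HEK293T siFBL replicate 2 (0.81, adjusted p = 0.104), and that of SLC3A2 without C4-2 siFBL library A (−0.96, adjusted p = 0.0532).

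**Figure D3:**
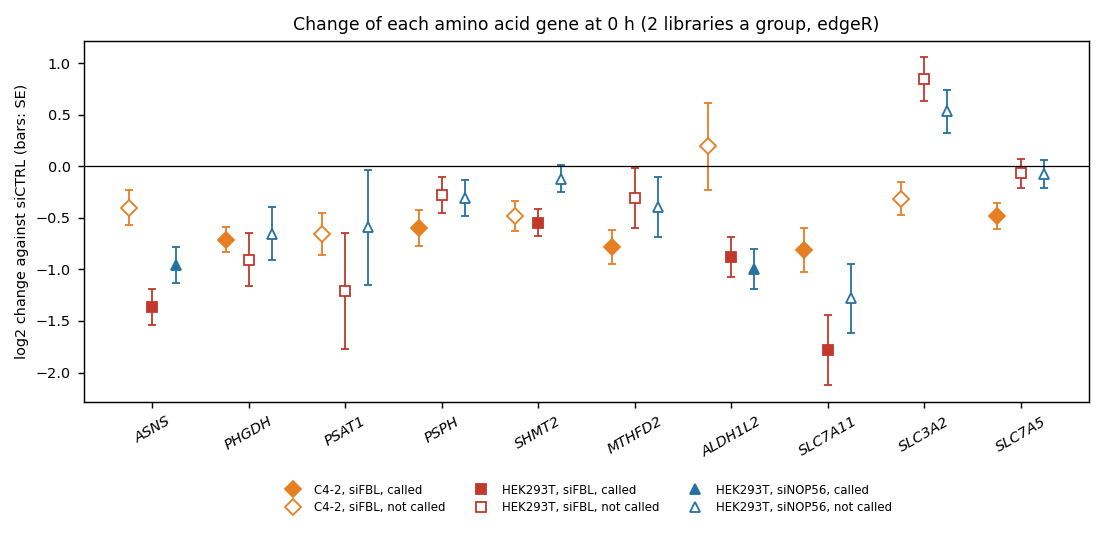
Log2 change against siCTRL at 0 h (vertical axis) for each gene (horizontal axis) with siFBL in C4-2, siFBL in HEK293T and siNOP56 in HEK293T. Bars are standard errors of the edgeR fit and filled symbols are called genes. ASNS sits at −1.36 with siFBL in HEK293T and −0.40 in C4-2, while SLC3A2 sits at 0.85 and −0.31.

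Over the hours with siCTRL, levels of PHGDH and SHMT2 went up relative to the rest of the library and that of SLC3A2 went down. PHGDH stood at 3.04 times its 0 h level at 24 h with siCTRL in HEK293T and at 1.78 times at 12 h in C4-2. In a straight-line fit with siCTRL, it gained log2 0.064 per hour (SE 0.012) in HEK293T and 0.070 per hour (SE 0.0099) in C4-2. SLC3A2 went the other way at once. With siCTRL in C4-2 it stood at 0.47 of its 0 h level after 3 h and 0.37 after 6 h, and with siFBL at 0.474 and 0.396. In HEK293T it stood at 0.621 of the 0 h level after 6 h with siCTRL, 0.39 with siFBL and 0.453 with siNOP56, and was higher again at 12 and 24 h. SLC7A11 stood at 0.538 of its 0 h level at 24 h with siCTRL in HEK293T. These are levels relative to the other mRNAs of the same library, so a loss shared by all mRNAs is not visible.

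The knockdowns did not detectably change the slopes over the hours. None of the 10 genes passed in C4-2 with siFBL, where 1 of 23437 genes did (0.00427%) and 1117 had an unadjusted p under 0.05. None passed in HEK293T with siFBL or siNOP56, where no gene did (0.0%), with 449 and 197 at an unadjusted p under 0.05. DESeq2 called none of the 10 in all 3 comparisons and 24, 6 and 3 of all genes. The slope differences of the 10 ran from log2 −0.032 to 0.037 per hour in C4-2 and from −0.035 to 0.033 per hour with siFBL in HEK293T. The most negative was ALDH1L2 in C4-2, a gene near 2.0 CPM there, and SLC3A2 in HEK293T, whose start was higher. A straight line does not follow a gene such as SLC3A2, which in C4-2 with siCTRL and in all HEK293T groups was lowest at 6 h.

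In the RIP, after scaling, the 10 genes split evenly between higher and lower levels with anti-FBL than in the input. Scaling by the trimmed mean of M-values gave factors of 1.39 and 1.38 to the input libraries and 0.722 and 0.7205 to the RIP libraries. It takes most genes as unchanged and raises all RIP values against the input by a shared factor. The even split, each fold and the direction of the smaller differences depend on it. ASNS, PHGDH, SHMT2, MTHFD2 and ALDH1L2 were higher in RIP, and PSAT1, PSPH, SLC7A11, SLC3A2 and SLC7A5 lower. Every one was called, which says little by itself, since 82.9% of 14967 genes were called in this comparison, 39.9% higher and 43.0% lower. No mock or control antibody library was analysed here, so binding to FBL and to the beads cannot be told apart.

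SHMT2 was 150.4 and 149 CPM in the input and 498 and 501 CPM in the RIP, the largest excess of the 10 (3.33-fold, log2 1.74, SE 0.063, adjusted p = 2.47e-21). ASNS was 27.4 and 28.5 CPM against 59.6 and 60.5 CPM in the RIP (2.15-fold). PHGDH was 104 and 97.9 CPM against 199 and 218 CPM (2.06-fold), and MTHFD2 53.6 and 49.5 CPM against 104 and 101 CPM (1.99-fold). After scaling, the libraries of a kind lay close together within each of these genes and far from the other kind. The scaling factors of input (1.39 and 1.38) and RIP (0.722 and 0.7205) differ nearly as much as ASNS, PHGDH and MTHFD2 do. Most of the excess of these 3 genes, but not of SHMT2, therefore rests on the scaling. ALDH1L2, at 3.13 and 3.22 CPM in the input and 5.08 and 3.49 CPM in the RIP, was the weakest (log2 0.43, adjusted p = 0.0296). It lost its call without RIP replicate 1 (log2 0.15, adjusted p = 0.557) or input replicate 1 (0.41, adjusted p = 0.065), and also with DESeq2 (0.52, adjusted p = 0.082) and without the filter on low counts (0.43, adjusted p = 0.0812).

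The serine pathway was divided, with its first enzyme above the input and the next 2 below it. PSPH was 83.02 and 84.9 CPM in the input and 25.2 and 26.6 CPM in the RIP, the largest deficit of the 10 (3.25-fold, log2 −1.70, SE 0.071, adjusted p = 8.69e-20). PSAT1 was 199 and 193 CPM against 70.1 and 74.3 CPM (2.71-fold, log2 −1.44). The 3 transport genes were all below the input. SLC3A2 was 38.9 and 40.4 CPM against 20.1 and 22.6 CPM (1.86-fold), SLC7A11 37.7 and 40.9 CPM against 27.1 and 25.5 CPM (1.5-fold) and SLC7A5 131 and 139 CPM against 102 and 109 CPM (1.29-fold).

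Other lists differed in the RIP as well. Of 12 tRNA synthetases known as ATF4 targets, 11 were higher and 1 lower, with a median log2 difference of 1.56 against −0.11 for all genes, led by EPRS (log2 3.76) and MARS (2.1). Of 19 other transporters tested, 6 were higher and 12 lower, with a median of −0.43. Of 12 other folate enzymes, 7 were higher and 3 lower, and of 15 other amino acid synthesis genes 8 were higher, led by CBS (log2 2.14), and 6 lower. ATF4 was 89.9 and 95.3 CPM in the input and 158 and 166 CPM in the RIP (log2 0.81, adjusted p = 3.47e-13).

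**Figure D4:**
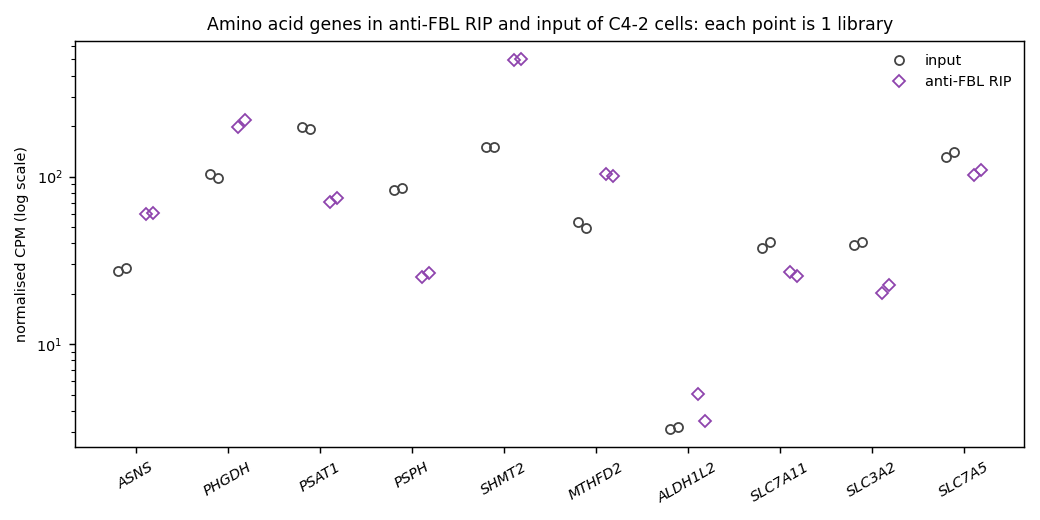
Normalised CPM on a log axis of each gene in 2 input and 2 anti-FBL RIP libraries of C4-2 cells with siCTRL; each point is 1 library. SHMT2 is at 150.4 and 149 CPM in the input and 498 and 501 CPM in the RIP, and PSPH at 83.02 and 84.9 CPM and 25.2 and 26.6 CPM.

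SLAM-seq gave reads at the 3′ end of the mRNA. For 12 of 16 libraries the label and the header of the file name different hours, and for all 16 they name the same siRNA. Only 2 of 4 replicates had a larger T>C share at the labelled start than at the labelled 24 h, so no contrast of hours was tested. The siRNAs were compared over all hours with the labelled hour as a term. By header hour, the siCTRL shares over 1 interval per gene name were 58.4 and 58.3% at 0 and 34.1 and 33.6% at 6. They were 21.6 and 21.3% at 12 and 10.0 and 10.1% at 24. By label, the 2 siCTRL libraries of 0 h had 58.4 and 10.0%. The shares thus paired by header hour and not by label. The labelled-hour term therefore groups libraries of unlike share. Each gene was read from its interval with the most reads, on hg38. For SLC7A11 this was chr4:138164097-138171955, for MTHFD2 chr2:74214243-74217565 and for PSAT1 chr9:78329087-78330093, each lying wholly in annotated UTR. That of SLC3A2 was chr11:62888694-62888880, with 182 of 187 bases in UTR, and that of PHGDH chr1:119743886-119744212, of which 152 of 327 bases are also coding in some transcript. That of ASNS was chr7:97851677-97852258, with 141 of 582 bases in UTR and the rest past the annotated end of the gene.

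Total 3′ reads showed no called change among the 9 genes tested, where 0.854% of 15344 genes were called (131 genes, with 2089 at an unadjusted p under 0.05). DESeq2 called none of the 9 either. SLC3A2 came closest (log2 −0.40, SE 0.15, adjusted p = 0.233). Its 8 siCTRL libraries ran from 418 CPM over a median of 512 to 599 CPM. Its 8 siFBL libraries ran from 190.05 CPM over 445 to 537 CPM, so the groups overlapped with the hours pooled. Within each header hour both siFBL libraries of SLC3A2 lay below both siCTRL libraries. They were at 358 and 374 CPM against 418 and 431 CPM at 0, and 516 and 537 CPM against 558 and 590 CPM at 6. At 12 they were at 534 and 537 CPM against 575 and 599 CPM. The gap was widest at 24, at 190.05 and 191 CPM against 455 and 466 CPM. ASNS ran from 194 over 233 to 503 CPM with siCTRL and from 150.4 over 234 to 350.4 CPM with siFBL (log2 −0.22, adjusted p = 0.756). PHGDH, called lower at all 4 hours in the RNA-seq of the same line, differed by log2 0.02 (SE 0.18, adjusted p = 0.982), with 95.4 to 179.97 CPM and a median of 116 CPM with siCTRL and 80.4 to 233 CPM and a median of 105 CPM with siFBL. MTHFD2 differed by log2 −0.22 (SE 0.15, adjusted p = 0.575).

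With the hour of the file header as the term, an alternative chosen after the mismatch was seen, ASNS (log2 −0.24, adjusted p = 0.0452) and SLC3A2 (−0.43, adjusted p = 0.0209) passed, both lower, where 10.4% of all genes were called, 5.08% lower.

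The share of reads with a T>C conversion, the measure of RNA made during the labelling, did not pass for any of the 9 genes with labelled hours, nor for any of 10904 genes (0.0%), of which 1 had an unadjusted p under 0.05. The labelled hour sets libraries of unlike share together, so the absence of calls does not show that siFBL left the share unchanged. No other count test was run on this share. With the header hour as the term, 8 of 9 passed and all were lower with siFBL, where 35.0% of all genes were called lower and the median change of the log2 odds was −0.56. SLC3A2 was lowest (log2 odds −0.97, SE 0.13, adjusted p = 3.19e-05), then PSPH (−0.86), PSAT1 (−0.79), MTHFD2 (−0.68) and SLC7A11 (−0.66). SHMT2 (−0.53), ASNS (−0.51) and PHGDH (−0.44) were less negative than the median of all genes, and SLC7A5 did not pass (−0.18, adjusted p = 0.409).

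By header hour the shares of the genes went down by different amounts. SLC3A2 with siCTRL had 83.7% T>C reads at header hour 0, 24.4% at 6, 8.39% at 12 and 3.81% at 24 (means of 2 libraries, at least 6588 reads each). SLC7A11 dropped as quickly, from 71.4% to 18.7%, 8.87% and 2.35%. Its total rose meanwhile, from 103 CPM at header hour 0 to 359.8 and 525 CPM at 6 and 12, and a share goes down with added unlabelled reads as with lost labelled ones. PHGDH and SHMT2 began lower and fell slowly, PHGDH from 46.3% to 38.9% and 21.99% at 6 and 12, SHMT2 from 59.1% to 49.4% and 31.1%. PSPH (90.1% to 58.5% and 15.4%), PSAT1 (89.6% to 49.5% and 15.4%) and MTHFD2 (90.3% to 53.7% and 27.2%) began nearly fully labelled. Totals with siCTRL also rose from header hour 0 to 12 for SLC3A2 (424 to 587 CPM), PSAT1 (90.5 to 164 CPM) and ASNS (201 to 281 CPM). Those of MTHFD2 (79.2 to 95.0 CPM) and SLC7A5 (43.5 to 57.8 CPM) rose as well. Those of PSPH (55.5 to 37.4 CPM), PHGDH (126 to 111 CPM) and SHMT2 (277 to 260 CPM) fell. The shares are therefore not decay rates.

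With siFBL the shares at header hour 0 were 71.8% for SLC3A2, 56.2% for SLC7A11, 83.3% for MTHFD2 and 44.2% for PHGDH, all below their siCTRL means. Over the interval with the most reads of each of 31796 gene names, summed, the share was 58.4% with siCTRL and 54.4% with siFBL at header hour 0. At 24 it was 10.1% and 5.09%, so the share over these intervals was lower with siFBL. A sum over these intervals counts a read in each interval it overlaps.

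**Figure D5:**
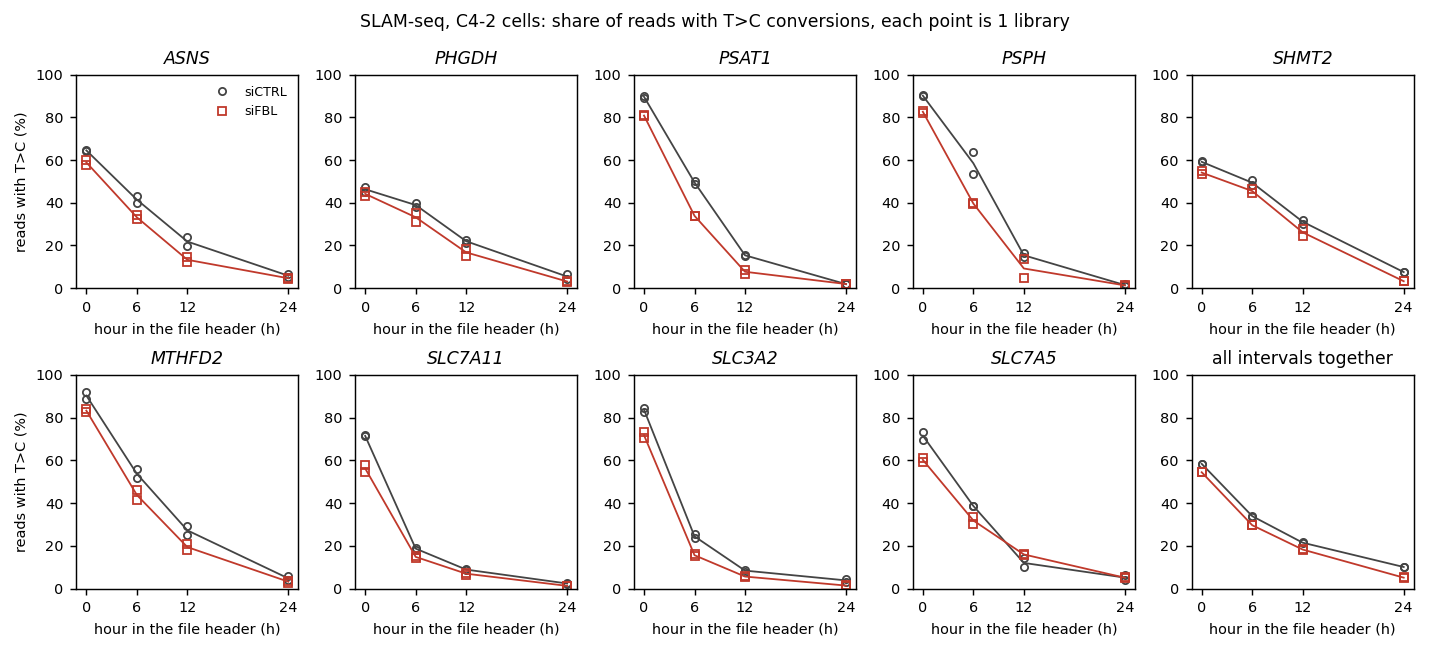
Share of reads with T>C conversions in SLAM-seq (vertical axes, 0 to 100%) against the hour named in the file header, not the label. The 2 differ in 12 of 16 libraries. Panels show 9 genes and, under the title all intervals together, the sum over the interval with the most reads of each gene name. Each point is 1 library and lines join means of 2. SLC3A2 and SLC7A11 with siCTRL fall to 24.4% and 18.7% at hour 6, where PHGDH still has 38.9%, and siFBL lies below siCTRL in most panels.

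The 10 genes differed in how closely they followed their own mean pattern, taken as the average of the 10 genes' scaled log2 CPM after removing the mean of each hour. In HEK293T, over 24 libraries, ASNS (Pearson's r = 0.97), PHGDH (0.944), ALDH1L2 (0.943) and SLC7A11 (0.91) lay close to it, MTHFD2 (0.162) hardly and SLC3A2 (−0.325) against it. In C4-2, over 16 libraries, 9 genes had r between 0.82 and 0.969, and ALDH1L2 0.265. Among 10349 genes of at least 5 CPM in HEK293T, those most like the pattern were LRP8 (0.975), SNORD17 (0.974), RPL3 (0.972), RPL13A (0.968) and SULT1A1 (0.967). In C4-2, among 10018, they were RBBP7 (0.993), KLK2 (0.991), KIAA0391 (0.991), RPN1 (0.99) and MPZL2 (0.99). These values share libraries and siRNA groups, each gene is part of its own mean, and they carry no test.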

How the data were processed

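The members, gene lists, comparisons and alternatives were chosen with earlier results of these data known. Per the labels, 60 of 64 human cell line samples were used. The authors deposited raw counts of reads for each gene symbol (RIP and time courses), and read and T>C read counts per 3′ interval for SLAM-seq (slamdunk 0.4.3, per the file headers). The deposited SLAM-seq CPM column was treated as a score and used only to recover mapped reads. TopHat2 2.1.1, HOMER and Trim Galore are named per the submitters' processing notes. The build and counting tool of the gene counts remain not given in the sources used here.

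For counts, edgeR 4.0.16 was used (TMM scaling, its default filter, quasi-likelihood test, 1 mean per siRNA and hour over a whole time course) in R 4.3.3, with Benjamini-Hochberg adjustment over all genes and calls at 0.05. The T>C share was fitted as T>C against other reads within each library, for intervals with at least 10 reads in every library. C4-2 columns match groups, not single samples, and their libraries are called A and B for the numbers 1 and 2 in the column names. Fits were tested on simulated data. Alternatives were DESeq2 1.42.0, RLE scaling, no filter, a replicate block, single hours and leaving out each library. All members are named, ATF4 and at most 4 called genes of each list by size of change, and the 5 genes most like the members in each course; 1 item that this rule names is not reported here. Libraries of a group differed by more than counting error, and in both time courses more so with knockdown than with siCTRL. At 0 h in HEK293T, chi-squared per degree of freedom was 1.48 with siCTRL, 37.2 with siFBL and 23.3 with siNOP56. In C4-2 it was 23.4 with siCTRL and 98.6 with siFBL. The fits used a spread shared by all groups of a course.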

Additional observations from a re-analysis of the deposited data

Results flagged for a closer look

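The effect of siFBL at 0 h differed between the cell lines for ASNS and SLC3A2, by the edgeR test of the difference itself in 1 model of both time courses. For ASNS the C4-2 effect minus the HEK293T effect was log2 1.18 (adjusted p = 0.00303). Both siFBL libraries lay below both controls in each line, and the level was 2.58-fold lower in HEK293T, a call, and 1.32-fold lower in C4-2, which did not pass. For SLC3A2 the difference was log2 −0.94 (adjusted p = 0.0223). Both siFBL libraries lay above the controls in HEK293T (149 and 187 CPM against 95.97 and 91.01 CPM) and below them in C4-2 (119.8 and 136 CPM against 165 and 153 CPM), though neither change passed on its own.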

How the results depend on the processing

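Of 55 calls of members, 54 remained with RLE scaling, 53 with DESeq2, 53 without the filter on low counts and 8 of 43 with the libraries of 1 hour alone, and none reversed. With 1 hour alone, 0 of the 10 genes passed in HEK293T at all 4 hours with siFBL or siNOP56, and in C4-2 0 passed at 6 h and 2 at 12 h, by a test with fewer samples. DESeq2 called 4 genes in the difference between cell lines. With the header hour, 2 genes passed for SLAM-seq total reads and 8 for the T>C share. Leaving out 1 library gave 9 to 10 calls in RIP, 1 to 4, 2 to 3, 2 to 4 and 2 to 8 in C4-2 at 0, 3, 6 and 12 h, 1 to 2, 1 to 4, 1 to 6 and 2 to 6 with siFBL in HEK293T at 0, 6, 12 and 24 h, 0 to 1, 0 to 2, 0 to 3 and 0 to 3 with siNOP56, 1 to 3 in the difference between lines, and 0 in the slopes, in siFBL against siNOP56 and in SLAM-seq. In HEK293T at 0 h, uncalled SLC7A5 (log2 −0.07 with siFBL) ran from −0.30 to 0.028 and uncalled SHMT2 (−0.12 with siNOP56) from −0.41 to 0.000456 when 1 library was left out, the higher ends without knockdown replicate 1. A lone library was assumed to vary like the other groups.

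DESeq2 called 4015 genes in C4-2 at 0 h (1988 with edgeR), 24 against 1 for its slope, 616 against 131 for SLAM-seq total reads, and in HEK293T 778 against 260 and 1629 against 990 with siFBL at 0 and 6 h, and 208, 441, 762 and 1309 against 28, 102, 228 and 794 with siNOP56. With 1 hour alone 827 genes passed in C4-2 at 6 h (2122 in the whole course) and 1352 at 12 h (3144), and at most 5 in HEK293T. Without the filter 596 passed for SLAM-seq total reads, and RLE scaling gave 18 with siNOP56 at 0 h. DESeq2 moved the share of higher calls in C4-2 from 25.0 to 41.6% at 3 h, 23.6 to 42.03% at 6 h and 20.4 to 32.8% at 12 h.

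Replicate numbers share only a number. At the same hour, deviations of same-numbered libraries of different siRNAs correlated at −0.021 to 0.222 in HEK293T and −0.121 to 0.078 in C4-2. Between different hours they reached −0.136 in HEK293T and 0.178 in C4-2. A replicate block ended none of 53 calls. It gave 7, 6, 4 and 7 called members in C4-2 at 0, 3, 6 and 12 h (2670, 3741, 2932 and 3966 of all genes). In HEK293T it gave 6 at each hour with siFBL and 2, 3, 4 and 3 with siNOP56, with 861, 1981, 2490 and 3133 and 140, 388, 836 and 1485 genes called in all. It gave 0 for the slopes, siFBL against siNOP56 and SLAM-seq, and 10 in RIP. In SLAM-seq, 17 reads over 16 libraries left ALDH1L2 untested.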
